A study of Danio rerio with 42 samples.

Results

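Angptl4, cpt1aa, cpt1ab, cpt2, plin2, pparaa, pparab, pparg and ppargc1a were taken by symbol from count tables of whole zebrafish larvae and adult livers, to describe peroxisome proliferator-activated receptors (PPARs), their coactivator, and target genes of fatty acid oxidation and lipid storage. All 9 genes were found at both stages, among 25935 larval genes and 25680 liver genes. All 9 passed the filter on low counts, which left 19657 genes in larvae and 14225 in the fit of all livers.

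The study exposed AB strain embryos to ethanol (EtOH) in the water from 12 hours to 5 days post fertilization (dpf), and asked how this embryonic alcohol exposure (EAE) alters the later response to a high-fat, high-cholesterol (HFHC) diet as against a normal diet (ND). Larvae received 0% EtOH (control) or 1% EtOH (EAE), went onto either diet at 6 dpf and were collected at 13 dpf, with 3 pools of 15 whole larvae in each of 4 groups. Adults had received 0%, 0.5% or 1% EtOH as embryos, ate either diet for 8 weeks from 65 dpf, and gave 1 liver per library, with 5 livers in each of 6 groups. Per the study's methods the larval HFHC diet was the ND plus egg powder. The adult HFHC diet was a larger ration of the ND feed plus egg powder. The paper states that the HFHC challenge brings excess calories as well as fat and cholesterol. Amount and composition of the food cannot be told apart in the diet comparisons below. Every group is of 1 strain, no group carries a transgene, and a pool of whole larvae mixes all tissues.

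PPARs are nuclear receptors that bind fatty acids and their derivatives and switch on target genes as partners of retinoid X receptors. PPAR alpha, encoded in zebrafish by pparaa and pparab, is known in mammals as the main regulator of hepatic fatty acid oxidation, and PPAR gamma, encoded by pparg, as the regulator of fat cell formation. To be burned, long-chain fatty acids must enter mitochondria on carnitine: carnitine palmitoyltransferase 1, encoded in liver-type form by cpt1aa and cpt1ab, loads them at the outer membrane, and carnitine palmitoyltransferase 2 (cpt2) releases them at the inner one.

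Larval libraries held 18582927 to 39115243 counts and liver libraries 8131371 to 12963071. CPM, counts scaled to the library size and by the TMM method, are given below for a gene across samples, and TPM, a scale that also takes gene length into account, for comparisons between genes. A gene was called changed at an adjusted p under 0.05 in edgeR's quasi-likelihood test, after Benjamini-Hochberg adjustment over all genes tested. Intervals are 95% intervals of the log2 fold change. Whether less RNA of a gene reflects fewer cells of a type or less RNA per cell cannot be told apart in these bulk samples. Per the study's methods the groups were made up of siblings matched by clutch or family. The labels do not say which clutch each pool or liver came from, so p-values measure the spread between these samples.

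On the length-corrected scale, angptl4 and plin2 were the most abundant of the 9 transcripts in control ND larvae and the receptor and coactivator genes the least, apart from pparaa. Angptl4 encodes an inhibitor of lipoprotein lipase and is a classic PPAR target, and it averaged 93.9 ± 1.91 TPM (SD, n = 3). Plin2, which encodes a coat protein of lipid droplets, averaged 78.7 ± 11.6 TPM. The 3 carnitine palmitoyltransferase genes were close to each other, with cpt2 at 31.3 ± 1.22 TPM, cpt1ab at 29.7 ± 1.22 TPM and cpt1aa at 23.0 ± 0.946 TPM. Of the receptors, pparaa averaged 28.8 ± 1.42 TPM, pparg 8.80 ± 1.39 TPM and pparab 3.06 ± 0.319 TPM. Ppargc1a, which encodes the coactivator PGC-1 alpha, averaged 5.25 ± 0.814 TPM. In every one of the 12 pools pparaa exceeded both other receptors, by 6.91 to 12.2 times over pparab and by 2.44 to 3.67 times over pparg. Pparaa and pparab, and cpt1aa and cpt1ab, are pairs of related genes, and how reads that match both were counted is not given in the sources used here.

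**Figure D1:**
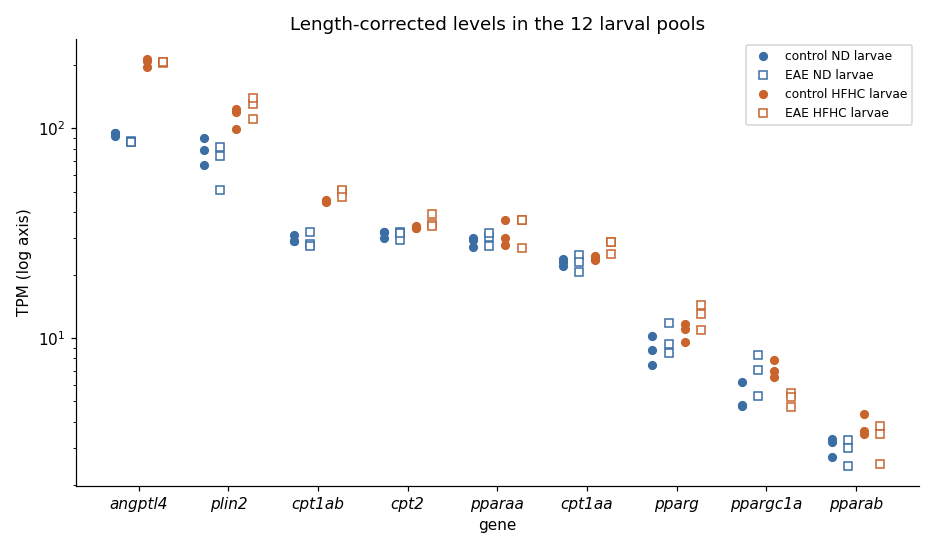
TPM of the 9 genes in the 12 larval pools, on a log axis, with a point for each pool, blue for ND and orange for HFHC diet, filled for control and open for EAE larvae. Angptl4 and plin2 are at the top, with control ND means of 93.9 and 78.7 TPM, and pparab is at the bottom with a control ND mean of 3.06 TPM.

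HFHC feeding in control larvae raised 3 of the 9 genes: angptl4, cpt1ab and plin2. Over all genes tested 17.1% were called in this comparison. All 9 genes had a positive log2 fold change, with a median of 0.31 against 0.01 for all genes. In EAE larvae the same diet raised 5 of the 9, angptl4, cpt1ab, plin2, cpt1aa and cpt2, where 12.3% of all genes were called. Here 8 of the 9 log2 fold changes were positive, with a median of 0.26 against −0.00 for all genes. The pools of the 2 diets had ranges without overlap for 5 of the 9 genes in each background. Over all genes this was so for 35.4% in control and 31.3% in EAE larvae. Angptl4 and cpt1ab also belong to a list of obesity-related genes that the study picked on the control larvae of this diet, so their rise there is not independent evidence.

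Angptl4 (ENSDARG00000035859, GRCz10 chromosome 2, 24881111 to 24886867) read 125, 132 and 127 CPM in the control ND pools and 259, 289 and 281 CPM in the control HFHC pools. In EAE larvae it read 121, 116 and 112 CPM on ND and 275, 269.9 and 288 CPM on HFHC diet. The 6 HFHC pools were all above 2 times the level of any ND pool except for the lowest of them, 259 CPM in a control pool. The log2 fold change with diet was 1.11 in control larvae (interval 0.98 to 1.23, adjusted p = 7.71e-09) and 1.26 in EAE larvae (interval 1.13 to 1.38, adjusted p = 4.85e-09), the smallest p of any gene in the EAE comparison.

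Cpt1ab (ENSDARG00000062054, chromosome 25, 23494442 to 23546729) read 77.3, 78.9 and 81.4 CPM in control ND pools and 115, 121 and 117 CPM in control HFHC pools. In EAE larvae it read 76.2, 71.7 and 81.1 CPM on ND and 129, 129.8 and 128 CPM on HFHC diet. The HFHC pools of either background stood above every ND pool, and the 3 EAE HFHC pools stood above the 3 control HFHC pools. The rise of cpt1ab on the log2 scale was 0.57 in control larvae (interval 0.45 to 0.69, adjusted p = 4.7e-06) and 0.76 in EAE larvae (interval 0.64 to 0.87, adjusted p = 1.22e-06).

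Its paralog cpt1aa (ENSDARG00000059770, chromosome 7, 48532758 to 48557561) differed from it in control larvae, with 43.1, 41.9 and 43.8 CPM on ND and 42.6, 44.6 and 44.2 CPM on HFHC diet. These ranges overlapped and the log2 fold change was 0.03 (interval −0.11 to 0.16, adjusted p = 0.801). In EAE larvae cpt1aa read 39.5, 45.8 and 40.8 CPM on ND and 51.6, 51.5 and 47.8 CPM on HFHC diet, without overlap. It rose there by 0.26 (interval 0.12 to 0.39, adjusted p = 0.0138), a call that was lost without EAE ND replicate 1 or 3 or EAE HFHC replicate 1 or 2, with an adjusted p of up to 0.0599. The TPM ratio of cpt1ab to cpt1aa was 1.29 ± 0.03 in control ND larvae and 1.28 ± 0.16 in EAE ND larvae, and 1.88 ± 0.03 in control HFHC larvae and 1.80 ± 0.07 in EAE HFHC larvae (SD, n = 3). Every HFHC pool had a higher ratio than every ND pool.

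Cpt2 (ENSDARG00000038618, chromosome 8, 21105361 to 21110517) had 48.3, 52.8 and 50.6 CPM in control ND pools against 52.2, 55.8 and 52.0 CPM in control HFHC pools. In EAE larvae it read 48.6, 50.9 and 48.8 CPM on ND and 60.6, 54.4 and 56.5 CPM on HFHC diet, and only the EAE ranges did not overlap. The log2 fold change was 0.08 in control larvae (interval −0.05 to 0.20, adjusted p = 0.389) and 0.21 in EAE larvae (interval 0.08 to 0.34, adjusted p = 0.0305). The EAE call was lost without any 1 of the EAE ND pools or without EAE HFHC replicate 1 or 3, with an adjusted p of up to 0.133.

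Plin2 (ENSDARG00000042332, chromosome 15, 17094451 to 17112800) read 69.9, 95.8 and 80.1 CPM in control ND pools and 99.5, 129.6 and 120.1 CPM in control HFHC pools. In EAE larvae it read 53.6, 82.9 and 73.4 CPM on ND and 131, 139 and 118 CPM on HFHC diet. Neither pair of ranges overlapped, although plin2 spread more between pools than angptl4 or the carnitine palmitoyltransferase genes. It rose by 0.51 in control larvae (interval 0.22 to 0.80, adjusted p = 0.0189) and by 0.88 in EAE larvae (interval 0.59 to 1.18, adjusted p = 6.04e-04). The call in control larvae was lost without control ND replicate 1 or 3 or control HFHC replicate 2 or 3, with an adjusted p of up to 0.0776.

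None of the 3 receptor genes was called for diet in either background. Pparaa (ENSDARG00000031777, chromosome 4, 18620563 to 18663699) lay between 26.9 and 34.8 CPM over all 12 pools, with log2 fold changes of 0.09 in control and 0.16 in EAE larvae. Pparab (ENSDARG00000054323, chromosome 25, 2107545 to 2162876) rested on 41 to 83 counts per pool, and its control HFHC pools (2.81, 2.83 and 3.36 CPM) lay just above its control ND pools (2.64, 2.62 and 2.12 CPM), with a log2 fold change of 0.31 (interval −0.06 to 0.68). Pparg (ENSDARG00000031848, chromosome 11, 582995 to 643060) read 6.92, 7.32 and 8.95 CPM in EAE ND pools and 8.92 to 11.1 CPM in EAE HFHC pools, which overlap by a single pool. Its log2 fold changes were 0.27 in control larvae (adjusted p = 0.172) and 0.37 in EAE larvae (interval 0.10 to 0.65, adjusted p = 0.0759).

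Ppargc1a (ENSDARG00000067829, chromosome 7, 70128523 to 70219243) was the only one of the 9 whose log2 fold change with diet had opposite signs in the 2 backgrounds. Control larvae read 6.19, 6.38 and 7.90 CPM on ND and 9.91, 9.12 and 8.14 CPM on HFHC diet, without overlap. EAE larvae read 9.37, 6.77 and 10.2 CPM on ND and 6.89, 6.51 and 6.27 CPM on HFHC diet, with 1 ND pool inside the HFHC range. The log2 fold change was 0.39 in control larvae (interval 0.09 to 0.68, adjusted p = 0.0696) and −0.42 in EAE larvae (interval −0.73 to −0.11, adjusted p = 0.0758), and neither was called.

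**Figure D2:**
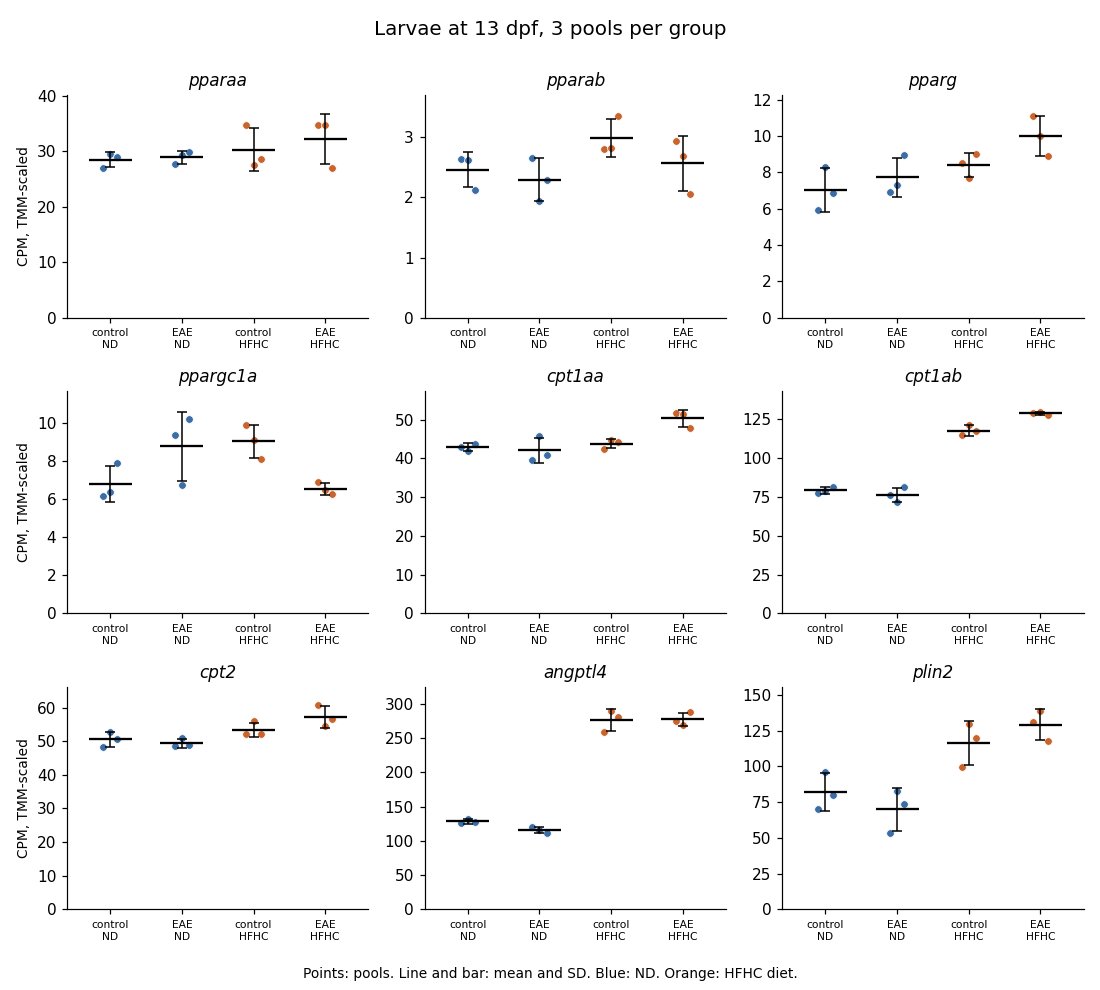
CPM of the 9 genes in the 12 larval pools by group, with points for pools and a line and bar for the mean and SD. Angptl4, cpt1ab and plin2 stand higher in both HFHC groups, cpt1aa and cpt2 in EAE HFHC larvae, and ppargc1a is high in EAE ND and control HFHC larvae with means of 8.80 and 9.06 CPM.

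The difference between the diet responses of EAE and control larvae was tested as an interaction, which shares all 12 pools with the comparisons above. None of the 9 genes was called by edgeR, against 0.254% of all genes. Of the 9, 3 had an unadjusted p under 0.05, as did 13.8% of all genes, and DESeq2 called 1 of the 9, ppargc1a. The interaction of ppargc1a was −0.80 on the log2 scale (interval −1.23 to −0.37, adjusted p = 0.088). Cpt1aa had an interaction of 0.23 (interval 0.04 to 0.42, adjusted p = 0.257) and cpt1ab one of 0.19 (interval 0.02 to 0.35, adjusted p = 0.304). The rise of cpt1aa and cpt2 with diet in EAE larvae was therefore not shown to differ from that in control larvae. Without EAE ND replicate 2 ppargc1a was called, with an adjusted p of 0.0241.

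EtOH exposure by itself called none of the 9 genes in larvae. On ND, edgeR called 1.31% of all genes and 0 of the 9, and DESeq2 also called 0 of the 9. An unadjusted p under 0.05 was found for 15.6% of all genes and for 2 of the 9. These were angptl4, whose 3 EAE ND pools all lay below the 3 control ND pools (log2 fold change −0.14, interval −0.27 to −0.02, adjusted p = 0.236), and ppargc1a (0.34, interval 0.04 to 0.64, adjusted p = 0.253). On HFHC diet 0.234% of all genes and 0 of the 9 were called, and DESeq2 also called 0 of the 9. There 3 of the 9 and 8.31% of all genes had an unadjusted p under 0.05. EAE HFHC pools lay above all control HFHC pools for cpt1aa (0.20, interval 0.07 to 0.33, adjusted p = 0.288) and cpt1ab (0.13, interval 0.01 to 0.25, adjusted p = 0.516), and below all of them for ppargc1a (−0.47, interval −0.77 to −0.16, adjusted p = 0.285). Ranges that do not overlap were common among all genes, at 20.1% for EtOH on ND and 14.2% on HFHC diet.

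The wider pathway was described with lists that exclude the 9 genes: receptors and coregulators, fatty acid uptake and activation, the carnitine shuttle, mitochondrial and peroxisomal beta-oxidation, ketone body metabolism, lipid droplets and lipolysis, and further PPAR targets. These lists were chosen with earlier results of these data known, so their shares beside all genes are a description and not independent evidence. In control larvae the diet raised 42 and lowered 1 of the 120 listed genes tested, or 35.8% against 17.1% of all genes, and in EAE larvae it raised 45 and lowered 5, or 41.7% against 12.3%. The larval interaction called 0 of the 120 by edgeR, so the counts of the 2 backgrounds were not shown to differ. It had 20 of the 120 and 13.8% of all genes at an unadjusted p under 0.05. The median log2 fold change of the listed genes was 0.14 in control and 0.21 in EAE larvae. Over all 19657 genes tested the diet raised 1884 and lowered 1484 in control larvae. In EAE larvae it raised 1609 and lowered 812 of them. The larval counts by list given below are to be read beside these. For EtOH on ND, 23 of the 120 and 15.6% of all genes had an unadjusted p under 0.05. EtOH lowered 1 of the 120 on ND, or 0.833% against 1.31% of all genes. This gene was g0s2, which went from 45.1 ± 6.49 to 29.6 ± 2.97 CPM (adjusted p = 0.0245). On HFHC diet edgeR called none of the 120 for EtOH, against 0.234% of all genes. There 11 of the 120 and 8.31% of all genes had an unadjusted p under 0.05.

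Carnitine shuttle genes rose in 5 of 8 cases in control larvae and in 6 of 8 in EAE larvae. Bbox1, which encodes the last enzyme of carnitine synthesis, rose by 0.81 in control larvae, from 103 ± 10.7 to 181 ± 2.20 CPM (adjusted p = 1.05e-06), and by 0.72 in EAE larvae. Cpt1b, the muscle-type carnitine palmitoyltransferase 1 of mammals, rose from 17.5 ± 1.48 to 37.5 ± 3.38 CPM in control larvae (adjusted p = 1.03e-05), and crot, which encodes the peroxisomal carnitine octanoyltransferase, rose by 0.69 in EAE larvae.

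Genes of mitochondrial beta-oxidation rose in 5 of 16 cases in control larvae and in 9 of 16 in EAE larvae. Acadvl, the very long-chain acyl-CoA dehydrogenase of the first step, rose by 0.30 in control and by 0.40 in EAE larvae. Etfdh, which passes the electrons to the respiratory chain, rose by 0.40 in EAE larvae. Of 16 genes on the peroxisomal beta-oxidation list none was called in control larvae by edgeR. There 3 of the 16 and 32.4% of all genes had an unadjusted p under 0.05. In EAE larvae 3 rose, acaa1 by 0.39, ech1 by 0.38 and hacl1 by 0.75. Hacl1 is on this list, but its enzyme acts in peroxisomal alpha-oxidation and not in beta-oxidation.

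The further PPAR targets rose in 12 of 19 cases in control and in 9 of 19 in EAE larvae. Pyruvate dehydrogenase kinases, which slow the oxidation of glucose carbon in mitochondria, led this list. Pdk2b rose from 36.1 ± 4.07 to 146 ± 13.6 CPM in control larvae (log2 2.02) and by 1.48 in EAE larvae. The study's list of obesity-related genes, picked on the control larvae of this diet, holds an entry spelled psk2b, which may stand for pdk2b. Pdk2a rose from 43.6 ± 6.01 to 123 ± 5.88 CPM in control larvae and by 1.32 in EAE larvae.

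Genes of lipid droplets and lipolysis rose in 6 of 13 cases in control larvae and in 8 of 13 in EAE larvae. Dgat2, which makes triglyceride, rose by 0.87 in control larvae, and cidec, a droplet fusion protein that is also on the adipocyte marker list, rose by 1.04. In EAE larvae g0s2, an inhibitor of the main triglyceride lipase, rose by 1.03 and mgll, which cleaves monoglycerides, by 0.64. Of the receptors and coregulators 8 of 21 rose in control and 4 of 21 in EAE larvae, among them lpin1, a coactivator and phosphatidate phosphatase, by 1.25 in control larvae. Lpin1 is also on the study's list of obesity-related genes picked on the control larvae of this diet. In fatty acid uptake and activation 5 of 21 rose and 1 fell in control larvae, and 5 rose and 4 fell in EAE larvae.

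Some cell type markers moved with the larval diet and others did not. Summed CPM of hepatocyte, enterocyte, exocrine pancreas and skeletal muscle genes overlapped between diets in both backgrounds. The summed CPM of 9 macrophage and neutrophil genes, none at 0, ranged from 223 to 247 in control ND and 273 to 349 in control HFHC pools, and from 185 to 207 in EAE ND and 318 to 329 in EAE HFHC pools. For 10 adipocyte genes, none at 0, these ranges were 484 to 560 and 519 to 568 CPM in control larvae, and 472 to 482 and 554 to 589 CPM in EAE larvae. The sum of 4 biliary genes was 423 to 448 CPM in control ND and 526 to 594 CPM in control HFHC pools, and 409 to 455 and 526 to 566 CPM in EAE larvae. The sum of 13 hepatocyte genes was 16866 to 20746 CPM in control ND and 19174 to 20173 CPM in control HFHC larvae. The sum of 8 erythrocyte genes separated the ND groups, at 764 to 930 CPM in control and 440.1 to 655 CPM in EAE pools, and with diet in EAE larvae it moved without overlap, to 769 to 901 CPM in EAE HFHC pools. Control HFHC pools were at 700.4 to 866 CPM. The part of these shifts in the results was not tested.

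**Figure D3:**
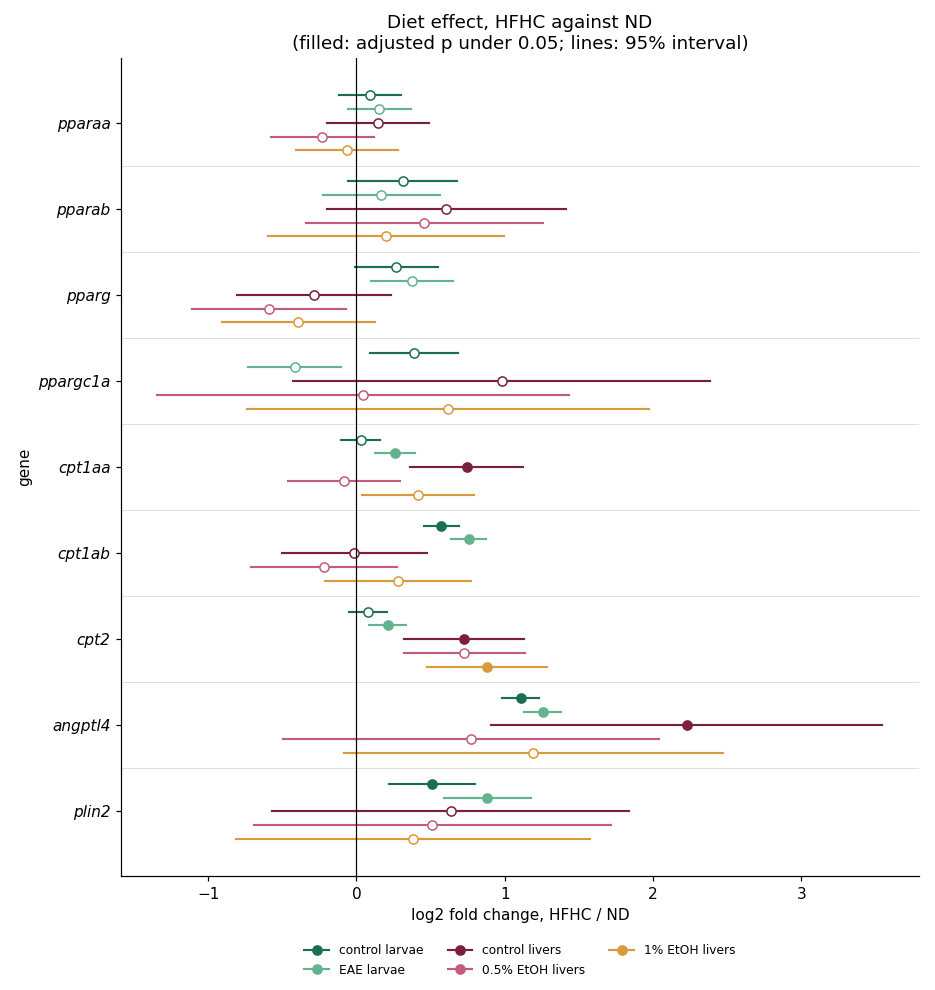
Log2 fold change of each gene with HFHC diet against ND, in larvae and livers of each EtOH exposure, with lines for the 95% interval and filled points for an adjusted p under 0.05. Angptl4 has the largest called values, 1.11 and 1.26 in larvae and 2.23 in control livers, and cpt2 is called in EAE larvae and in control and 1% EtOH livers.

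The same genes spread much more between livers than between larval pools. Each liver came from 1 fish, while a pool averages 15 larvae, and 5 livers are set beside 3 pools. This contrast therefore does not compare the variation between fish at the 2 stages. Angptl4 varied by 4.60 times between the 5 control ND livers and plin2 by 20.0 times, where the 3 control ND larval pools varied by 1.06 and 1.37 times. Each of these liver ranges rested on 1 liver among those that stood apart in the whole table, as described below. Without control ND liver 3, at 15.1 CPM, angptl4 varied by 2.01 times, and without control ND liver 1, which read 2.37 CPM from 14 counts, plin2 varied by 2.81 times. When the 6 liver groups were put in order of their mean, no neighbours of any of the 9 genes differed by more than the larger of their SDs, and all had overlapping ranges. In larvae neighbours with separate ranges were found for angptl4 (2 of 3 pairs), cpt1ab (2), cpt1aa (1) and plin2 (1).

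Hepatocyte markers were present in every liver, with a summed level of 13 genes of 69405 to 330138 CPM in control ND livers and 240118 to 318038 CPM in control HFHC livers. Of the 30 livers 6 stood apart on the first principal component: control ND livers 1, 2 and 3, 1% EtOH ND livers 3 and 5, and 0.5% EtOH HFHC liver 2. The sum of 9 enterocyte genes, none at 0, was 3511 to 29737 CPM in control ND livers, the 3 highest being those that stood apart, and 5372 to 6339 CPM in control HFHC livers. The sum of 13 exocrine pancreas genes was 3481 to 36796 CPM in control ND livers and 259 to 957 CPM in control HFHC livers, with no overlap. The sum of 10 skeletal muscle genes was also higher in control ND livers, at 7.46 to 56.0 CPM against 0.361 to 1.48 CPM in control HFHC livers. The highest pancreas sums, 36796 CPM in control ND liver 5 and 31378 CPM in 1% EtOH ND liver 1, were in livers not among the 6. Values without the 6 livers are given below, and they still include these 2 livers.

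HFHC feeding raised 3 of the 9 genes in control livers, angptl4, cpt1aa and cpt2, where 11.1% of all genes were called. The median log2 fold change of the 9 was 0.64, against −0.04 for all genes. In 1% EtOH livers 1 of the 9 rose, cpt2, where 0.879% of all genes were called, and in 0.5% EtOH livers edgeR called 0 of the 9 and 0.0703% of all genes. In the 0.5% EtOH livers 2 of the 9 had an unadjusted p under 0.05, as did 13.7% of all genes, and DESeq2 called 1 of the 9, cpt2.

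Angptl4 read 34.6, 42.2, 15.1, 69.4 and 57.6 CPM in control ND livers and 348, 383, 131, 94.8 and 68.3 CPM in control HFHC livers. The HFHC livers had 2 high values and 3 lower ones, the lowest of which was below the highest ND liver. The fold was 4.68 (log2 2.23, interval 0.91 to 3.55, adjusted p = 0.0248), and the call was lost without control ND liver 2 or 3 or control HFHC liver 1 or 2, with an adjusted p of up to 0.101. In 1% EtOH livers angptl4 read 17.6, 125, 42.7, 50.8 and 87.2 CPM on ND and 293, 49.2, 79.5, 135 and 184 CPM on HFHC diet, which overlap (log2 1.19, interval −0.08 to 2.47, adjusted p = 0.389). In 0.5% EtOH livers it read 60.7, 16.1, 70.5, 41.9 and 40.9 CPM on ND and 32.6, 207, 100.2, 22.3 and 31.6 CPM on HFHC diet, with 3 of the 5 HFHC livers inside the ND range. The log2 fold change was 0.77 (interval −0.50 to 2.04), and 0.02 without the highest HFHC liver, liver 2, which stood apart.

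The log2 fold change of cpt2 with diet lay between 0.73 and 0.88 in all 3 exposures. Its control ND livers read 36.1, 46.7, 53.2, 42.6 and 46.6 CPM and its control HFHC livers 92.6, 93.2, 56.5, 66.7 and 64.0 CPM. Its 1% EtOH livers read 48.3, 32.2, 49.8, 34.5 and 44.3 CPM on ND and 65.7, 72.1, 84.0, 76.0 and 87.3 CPM on HFHC diet. Neither pair of ranges overlapped, as for 4.55% of all genes in control livers and 3.72% in 1% EtOH livers. The log2 fold change was 0.73 in control livers (interval 0.32 to 1.13, adjusted p = 0.0188), 0.88 in 1% EtOH livers (interval 0.48 to 1.29, adjusted p = 0.0323) and 0.73 in 0.5% EtOH livers (interval 0.32 to 1.13, adjusted p = 0.114). The 0.5% EtOH livers read 37.4, 35.4, 34.2, 46.8 and 50.1 CPM on ND and 42.1, 98.7, 86.4, 52.1 and 58.6 CPM on HFHC diet, with a single HFHC liver inside the ND range. The call in control livers was lost without control HFHC liver 1 or 2 (adjusted p up to 0.0563), and that in 1% EtOH livers without any 1 of the 1% EtOH HFHC livers (up to 0.113). The sum of the 13 exocrine pancreas genes also separated the diets in 1% EtOH livers, at 2748 to 31378 CPM on ND and 345 to 1381 CPM on HFHC diet, and its part was not tested.

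Cpt1aa read 49.98, 28.8, 22.6, 32.5 and 34.7 CPM in control ND livers and 53.1, 41.6, 60.4, 67.8 and 59.18 CPM in control HFHC livers, where 1 ND liver reached above the lowest HFHC liver. It rose by 0.75 (interval 0.36 to 1.13, adjusted p = 0.0122), a call that was lost without control ND liver 3 (adjusted p = 0.0577). That liver had the lowest hepatocyte sum of its group, 69405 CPM, and the highest enterocyte sum, 29737 CPM. In 0.5% EtOH livers the hepatocyte sum was 209220 to 254227 CPM on ND and 226466 to 319888 CPM on HFHC diet. The part of these markers in the cpt1aa results was not tested. In 0.5% EtOH livers cpt1aa read 47.0, 48.4, 46.9, 59.3 and 50.9 CPM on ND and 42.3, 42.7, 61.7, 48.5 and 43.2 CPM on HFHC diet, which overlap. Its log2 fold change there was −0.08 (interval −0.46 to 0.30). The difference between these responses was −0.83 (SE 0.26, adjusted p = 0.0486), and cpt1aa was the only one of the 9 called in the interaction of 0.5% EtOH and diet, where 7.91% of all genes were called. This call held in 5 of 26 alternatives, over which the difference ranged from −1.03 to −0.72. It was lost without any 1 of the 0.5% EtOH ND livers, control ND liver 2, 3 or 4, control HFHC liver 1, 3, 4 or 6, or 0.5% EtOH HFHC liver 1, 2, 4 or 5, with an adjusted p of up to 0.114. The 0.5% EtOH ND livers all exceeded 4 of the 5 control ND livers (log2 0.56, interval 0.11 to 1.00, adjusted p = 0.267 in the comparison of these 10 livers). In the interaction of 1% EtOH and diet edgeR called 0% of all genes and 0 of the 9, none of which had an unadjusted p under 0.05, and DESeq2 also called 0 of them.

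Cpt1ab, which rose with diet in larvae of both backgrounds, had a log2 fold change of −0.01 in control livers (interval −0.50 to 0.48, adjusted p = 0.981). Its control livers ranged from 80.7 to 137 CPM on ND and from 79.3 to 136 CPM on HFHC diet. Plin2 ranged from 2.37 to 47.5 CPM in control ND livers and from 23.4 to 96.7 CPM in control HFHC livers (log2 0.64, interval −0.57 to 1.84, adjusted p = 0.541). The receptor genes were not called for diet in livers of any exposure, with log2 fold changes from −0.59 for pparg in 0.5% EtOH livers to 0.61 for pparab in control livers. Ppargc1a had a log2 fold change of 0.98 in control livers (interval −0.42 to 2.39).

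**Figure D4:**
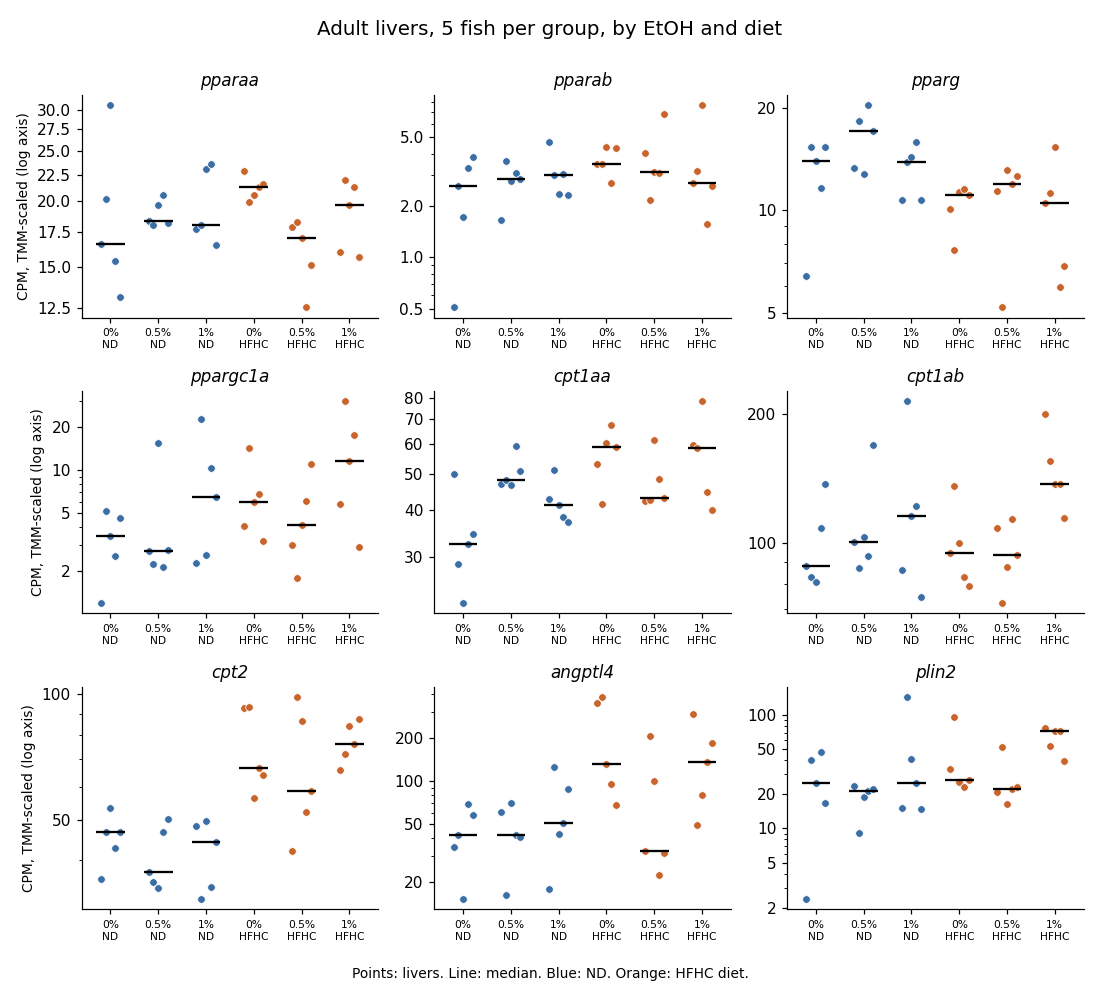
CPM of the 9 genes in the 30 livers on log axes, by EtOH percentage and diet, with a point for each liver and a line for the median. Cpt2 has a higher median on HFHC diet at each EtOH percentage, angptl4 spreads from 15.1 to 383 CPM in the control livers, and the other genes overlap between diets.

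None of the calls in control livers held without all 6 livers that stood apart, 3 of them control ND, although the log2 fold changes of cpt1aa and cpt2 were nearly the same. In that fit 2 control ND livers remained and edgeR called 0 of the 9 genes and 62 of 14748 genes in all. The log2 fold changes were then 1.69 for angptl4 (adjusted p = 0.659), 0.75 for cpt1aa (adjusted p = 0.265) and 0.74 for cpt2 (adjusted p = 0.372). The interaction of cpt1aa with 0.5% EtOH was −0.79 without them (adjusted p = 0.542). For diet in control livers the log2 fold change moved from 0.15 to 0.58 for pparaa (adjusted p = 0.213) and from 0.61 to 0.05 for pparab. The interaction of pparaa with 0.5% EtOH moved from −0.38 to −0.85 (adjusted p = 0.323), and neither receptor was called. The rise of cpt2 in 1% EtOH livers was 1.01 and was called (adjusted p = 0.0248).

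EtOH exposure called none of the 9 genes in livers. On ND, edgeR called 0.0154% of all genes at 1% EtOH and 0% at 0.5% EtOH, and on HFHC diet 0.00813% at 1% EtOH and 0% at 0.5% EtOH. In each of these comparisons 0 of the 9 were called by edgeR and by DESeq2. The number of the 9 with an unadjusted p under 0.05 was 0 for 1% EtOH on ND and 1 for each of the others. Over all genes this share was 4.4% on ND and 9.65% on HFHC diet at 1% EtOH, and 13.7% and 11.4% at 0.5% EtOH. At 0.5% EtOH, where edgeR called no gene, 1676 genes on ND and 1403 on HFHC diet had an unadjusted p under 0.05, and DESeq2 called 1041 and 138 genes. The EtOH comparisons at both doses share their control livers. With data simulated for 1% EtOH on ND, this test recovered 11% of log2 changes of 1 and 64% of those of 2. An absent call in livers therefore does not show that a gene was unchanged.

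Cpt1ab had the smallest p of the 9 for 1% EtOH on HFHC diet. It read 94.6, 136, 99.9, 83.2 and 79.3 CPM in control HFHC livers and 200.1, 155, 137, 137 and 114 CPM in 1% EtOH HFHC livers. A single control liver reached above the lowest exposed liver, and the log2 fold change was 0.60 (interval 0.20 to 0.99, adjusted p = 0.406). With 0.5% EtOH on that diet its log2 fold change was −0.05 (interval −0.43 to 0.34).

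Pparaa was the only one of the 9 with separate ranges in exposed and control livers, and only for 0.5% EtOH on HFHC diet. It read 22.9, 20.0, 20.6, 21.3 and 21.6 CPM in control HFHC livers and 17.8, 18.3, 17.04, 12.5 and 15.1 CPM in 0.5% EtOH HFHC livers. The exposed livers were all lower, with a log2 fold change of −0.39 (interval −0.66 to −0.11, adjusted p = 0.347), and of −0.44 without the exposed liver that stood apart (adjusted p = 0.269). Of all genes in this comparison 2.32% had groups that did not overlap. With 1% EtOH on this diet pparaa ranged from 15.6 to 22.0 CPM, and the log2 fold change was −0.17 (interval −0.43 to 0.10).

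Ppargc1a spread widely among 1% EtOH livers, with the highest liver 10.1 times the lowest on ND and 10.4 times on HFHC diet. It read 2.26, 22.7, 2.58, 10.3 and 6.47 CPM on ND and 5.82, 30.2, 11.5, 17.6 and 2.92 CPM on HFHC diet, against 1.19 to 5.17 CPM in control ND and 3.22 to 14.1 CPM in control HFHC livers. The log2 fold change with 1% EtOH was 1.36 on ND (interval −0.04 to 2.76) and 0.99 on HFHC diet (interval −0.27 to 2.24), and neither was called. The value on ND was 0.63 without 1% EtOH ND liver 2, the highest. Angptl4 had a log2 fold change of −1.36 with 0.5% EtOH on HFHC diet (interval −2.87 to 0.15, adjusted p = 0.476), and of −2.13 without the exposed liver that stood apart (adjusted p = 0.298).

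**Figure D5:**
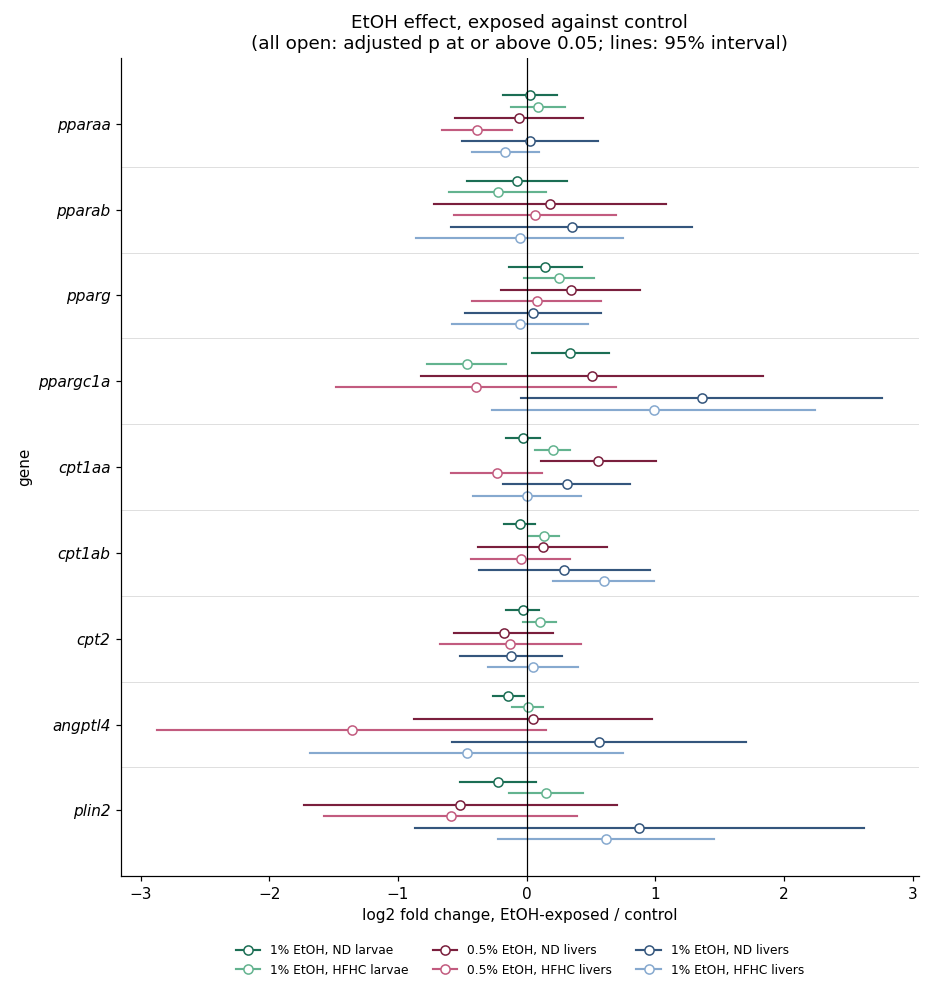
Log2 fold change of each gene in EtOH-exposed against control samples, for larvae at 1% and livers at 0.5% and 1% EtOH on each diet, with lines for the 95% interval. No gene is called, the larval intervals are the narrowest, and ppargc1a reaches 1.36 in 1% EtOH ND livers and −0.47 in HFHC larvae.

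Among the listed pathway genes, the diet raised 12 and lowered 7 of 114 tested in control livers, or 16.7% against 11.1% of all genes. Over all genes the diet raised 359 and lowered 1221. It raised 4 and lowered 1 of the 114 in 1% EtOH livers, or 4.39% against 0.879% of all genes. In 0.5% EtOH livers edgeR called 0 of the 114 and 0.0703% of all genes. There 23 of the 114 and 13.7% of all genes had an unadjusted p under 0.05. Without the 6 livers that stood apart, edgeR called 0 of 112 listed genes in control livers, with 14 at an unadjusted p under 0.05. In 1% EtOH livers it called 5 in that fit, 3 up and 2 down. These were acaa1, acsl1b, acsl5, creb3l3a and decr1, but not hadhaa. Of all 14748 genes 30 rose and 187 fell in 1% EtOH livers in that fit. The calls in control livers named here were thus all lost in that fit. In control livers 4 of 16 genes of mitochondrial beta-oxidation rose, among them hadhaa, of the trifunctional protein, by 0.65 from 156 ± 26.1 to 245 ± 41.8 CPM (SD, n = 5, adjusted p = 0.00879), and acadvl by 0.67. Crot of the carnitine shuttle rose by 0.72, and nrip1a, a corepressor of nuclear receptors in mammals, rose from 11.8 ± 5.27 to 31.4 ± 8.43 CPM. In 1% EtOH livers 3 of 16 beta-oxidation genes rose, with hadhaa at 0.69 and decr1, which prepares unsaturated fatty acids for oxidation, at 62.5 ± 25.7 CPM on ND and 177 ± 39.9 CPM on HFHC diet. The peroxisomal thiolase acaa1 rose by 0.55 there.

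Me1, the malic enzyme that yields NADPH for fat synthesis, had the largest rise on the list of further PPAR targets in control livers, from 77.5 ± 35.1 to 362 ± 93.9 CPM (log2 2.23, adjusted p = 0.00593). Creb3l3a, whose mammalian counterpart acts with PPAR alpha in fasting, rose by 1.24. Among genes of lipid droplets and lipolysis g0s2 rose by 2.03 and mgll by 1.03. All 6 called genes of fatty acid uptake and activation fell in control livers, led by acsl1b, which averaged 43.2 ± 61.1 CPM on ND and 1.93 ± 0.546 CPM on HFHC diet, and acsl5, at 132 ± 202 and 0.369 ± 0.279 CPM. Acsl5 also fell in 1% EtOH livers, from 50.9 ± 55.8 to 0.123 ± 0.125 CPM (edgeR adjusted p = 0.0376). Acsl1b and acsl5 were both called in 1% EtOH livers without the 6 livers that stood apart. The enterocyte sum given above exceeded that of all control HFHC livers only in control ND livers 1, 2 and 3. In control ND livers 4 and 5, at 3511 and 3580 CPM, it was below all of them. The part of these markers was not tested. In the interaction of 0.5% EtOH and diet 8 of the 114 were called, 6 up and 2 down, or 7.02% beside 7.91% of all genes. Without the 6 livers edgeR called 0 of 112 there, with 8 at an unadjusted p under 0.05.

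The genes whose levels followed those of the called members most closely, by Pearson's r of log2 CPM over all samples of a stage, are given as a description, since samples share diet, depth and cell makeup. Over the 12 larval pools klf11b (0.99), acadvl (0.99) and fnip1 (0.98) were closest to angptl4. Over the 30 livers klf11b (0.84), ptk6a (0.81) and g0s2 (0.80) were closest to angptl4, so that klf11b led at both stages. Cpt1ab in larvae was closest to marco (0.98), sqstm1 (0.98) and angptl4 (0.98). Marco is also on the macrophage and neutrophil marker list, whose sum moved with the larval diet. Cpt1aa in larvae was closest to pmvk (0.91), mroh1 (0.91) and ms4a17a.12 (0.89), and in livers to ephb4a (0.76), slain2 (0.75) and plekhh1 (0.74). Cpt2 was closest in livers to acadl (0.82), the long-chain acyl-CoA dehydrogenase, then to a gene named TMEM120A (0.82) and to pank4 (0.79), and in larvae to plcg2 (0.94), tprg1 (0.93) and dnajc5gb (0.93). Plin2 in larvae was closest to tgfbr2b (0.96), kel (0.96) and pmepa1 (0.96).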

How the data were processed

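Poly(A)-selected RNA was read from 1 end. For the larval pools the authors aligned reads to GRCz10 with STAR (version 2.4 in the submitters' notes), and deposited unnormalized counts per gene and TPM. The counting program and gene models of the larval table are not given in the sources used here. For the livers, the authors used STAR (2.3) and htseq-count (0.6.0) on Ensembl exons and deposited counts in 4 tables, which were joined on the identifier. All 10 control livers are identical in both tables that hold them, and control HFHC livers are numbered 1 to 4 and 6. The tables' 40 columns of size-factor counts, and the authors' own DESeq2 results (log2 fold change, p, adjusted p), were not used. Gene positions come from these tables. The strand setting is not stated.

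The main fits used edgeR 4.0.16 under R 4.3.3 (filterByExpr, TMM, glmQLFit and glmQLFTest, Benjamini-Hochberg adjustment). Larval comparisons came from 1 fit of 12 pools with a mean per group, EtOH comparisons in livers from the 10 livers concerned, and diet and interaction comparisons in livers from all 30. An SE was obtained as the size of the log2 fold change over the root of its F statistic. Log2 CPM used a prior count of 2. The number of samples per group limits the precision. Replicates of a group differed by more than sampling noise (chi-square per degree of freedom 4.34 to 7.99 in larvae and 15.7 to 278 in livers), so none was counted as a repeat.

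The 9 genes and the pathway and marker lists were chosen with earlier results of these data known. The text names the 9 genes in each comparison, up to 2 list genes with the smallest p that rose and 2 that fell in a comparison of 2 groups, and the 3 genes most alike each called member, leaving out clone names. Some genes so taken are given only in the counts. Alternatives were DESeq2 1.42.0, RLE scaling, no filter, other sets of samples in the fit, a replicate block, and each sample left out. In larvae limma 3.58.1 was also run on log2 TPM with different offsets. In livers the replicate block used only livers whose replicate number occurs in every group of the fit. The scripts were tested on simulated data.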

Additional observations from a re-analysis of the deposited data

Results flagged for a closer look

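There were 54 sets of 5 livers, 1 for each of the 9 genes in each group. In 7 sets the gap of 1 liver to the nearest other exceeded Dixon's critical value of 0.71 of the range. Chance gives about 1 in 20 only for independent, normally distributed values. The values here were unlogged CPM and the sets share livers, so that rate does not apply to them. Plin2 accounted for 3 of the 7 sets. It read 145 CPM in 1% EtOH ND liver 2 against 41.3 CPM in the next, 96.7 CPM in control HFHC liver 2 against 33.6 CPM, and 52.6 CPM in 0.5% EtOH HFHC liver 2 against 23.3 CPM. The last of these livers is one of the 6 that stood apart, and it also held the lowest pparg level, 5.20 CPM against 11.4 CPM in the next. Ppargc1a read 15.5 CPM in 0.5% EtOH ND liver 3 against 2.80 CPM, cpt1ab 169 CPM in 0.5% EtOH ND liver 5 against 103 CPM, and pparab 7.71 CPM in 1% EtOH HFHC liver 3 against 3.20 CPM.

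The response of cpt1aa to HFHC diet differed between 0.5% EtOH and control livers by −0.83 on the log2 scale in the edgeR interaction test (adjusted p = 0.0486). This call held in only 5 of 26 alternatives, and was lost without the livers that stood apart (adjusted p = 0.542). Of all genes 7.91% were called in this interaction.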

How the results depend on the processing

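Over 126 results, 9 genes in each of 14 comparisons, the alternatives gave 2097 values, of which none turned a called direction, 56 lost a call, 8 gained one and 105 changed the sign of a value that was not called. Angptl4 and cpt1ab in both larval diet comparisons, and plin2 in EAE larvae, were called in all 13 alternatives. The count of the 9 genes called in control livers for diet fell from 3 to 0 with only the groups compared in the fit, with the replicate number as a block, and without the livers standing apart, an alternative chosen after seeing the data. For cpt1aa in the interaction of 0.5% EtOH and diet, called in 5 of 26 alternatives, the count fell from 1 to 0 with RLE scaling, no filter, only the groups compared, the replicate block, and without the livers standing apart. The replicate block in livers also left out each liver whose replicate number was missing from another group of the fit. In 1% EtOH livers this block took the count for diet from 1 to 0. DESeq2 raised it from 0 to 1 for the larval interaction (ppargc1a) and for diet in 0.5% EtOH livers (cpt2), and fitting all 30 livers together raised it from 0 to 1 for 0.5% EtOH on ND (cpt1aa, adjusted p = 0.0494). The causes were not tested. With 1 sample left out, the counts ranged from 2 to 3 for diet in control larvae, 3 to 5 in EAE larvae, 1 to 3 in control livers, 0 to 1 in each of 0.5% and 1% EtOH livers, and 0 to 1 for the larval interaction and that of 0.5% EtOH, and stayed at 0 to 0 in the others.

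Single pools and livers that ended a call of one of the 9 genes are named beside its result. Ppargc1a was called for diet without control ND replicate 3 in control larvae (adjusted p = 0.0404) and without EAE ND replicate 2 in EAE larvae (0.0118), and pparg without EAE ND replicate 3 in EAE larvae (0.0388). The labels do not say whether the replicate numbers pair the samples. Deviations of same-numbered samples correlated at −0.11 to 0.08 in larvae and −0.56 to 0.57 in livers, which does not settle whether they share a family. Fitting only the groups compared was not run for the larval interaction, which uses all 4, and no liver of the 1% EtOH HFHC comparison stands apart. Depth limits pparab, which had 3 counts in 1 control ND liver.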
